A study of Mus musculus with 3 samples.

Results

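The genes described here code for enzymes, transporters and regulators of 3 routes of fuel use: the citric acid cycle with pyruvate dehydrogenase, the mitochondrial oxidation of fatty acids, and glycolysis. They were taken from a list of 52 gene symbols, and 50 of the 52 had a probe set that names that gene alone, among 18194 genes on the array. All 16 listed genes of the citric acid cycle, all 19 of fatty acid oxidation and 15 of the 17 of glycolysis were found. Gpi1 and Eno1 had no such probe set and have no array values here, though their promoter sequences were searched.

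RNA came from 3 epithelial lineages of mouse stomach, taken by laser-capture microdissection and hybridised to Affymetrix Mouse Genome 430 2.0 arrays, with 1 array per lineage. Parietal cells, which secrete acid, were recognised by the lectin DBA and autofluorescence and picked singly in the pit zone. Pit cells, the mucous cells at the top of the gastric unit, were E-cadherin-positive and DBA-negative and were taken near the top of those units, below the surface. Zymogenic cells, which secrete digestive enzymes, were E-cadherin-positive, negative for GSII and DBA, and came from the base zone on other slides, once parietal cells lying there had been removed. Each lineage comprised 3000 to 5000 cells from 4 to 5 mice, pooled to 20 ng of RNA and amplified before labelling. The labels used here name no genotype, strain, age or treatment for the mice, and they call the molecule nuclear RNA where the design text speaks of total RNA.

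Glycolysis splits glucose in the cytosol into pyruvate, which is either reduced to lactate or carried into mitochondria. There pyruvate dehydrogenase makes acetyl-CoA, which the citric acid cycle burns to carbon dioxide while loading electron carriers for the respiratory chain. Fatty acids reach the same acetyl-CoA pool by repeated shortening inside mitochondria. Parietal cells are known for their dense mitochondria, whose ATP drives the gastric proton pump.

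The pooled arrays have no replicate, so the differences below describe these 3 arrays, and no test or p-value between lineages was possible. Because zymogenic cells came from other slides, their slide and their lineage cannot be told apart. In pooled RNA, fewer cells of a type and less RNA per cell cannot be told apart either. Values are deposited intensities per probe set on a linear scale. An intensity above 23.3, the detection floor set from odorant and vomeronasal receptor probe sets, was read as measured. Lower values were set to the floor ahead of taking log2 differences, so that a fold against such a value is given as "at least". As a yardstick for measurement scatter alone, different probe sets of 1 gene gave log2 ratios between arrays with an SD of 0.48.

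The labels were set against lineage markers. The 9 zymogenic markers summed to 36615 in zymogenic cells against 4093 in parietal and 310.2 in pit cells, and 6 of the 9 were at least 2-fold above both others there. The 9 pit markers did not separate pit from parietal cells by their sum. They summed to 24475 in parietal, 15183 in pit and 134.9 in zymogenic cells, and all 9 exceeded the floor in parietal and pit cells but 1, Psca, in zymogenic cells. Singly, 3 of the 9 (Muc5ac, Capn8 and Krt20) were at least 2-fold above both others in pit cells, and 2 (Gkn2 and Lypd8) in parietal cells. The 13 parietal markers summed to 5757, 1358 and 404.2 in parietal, zymogenic and pit cells. Of these 13, Kcnq1, Atp4a, Slc4a2 and Cckbr were not highest in parietal cells, while Aqp4, Hrh2, Kcne2, Slc26a7, Slc9a4 and Esrrg were under the floor on every array. Of 8 endocrine markers, 5 exceeded the floor in zymogenic cells (summed level 970.8), 0 in parietal (41.8, with Hdc at 0) and 1 in pit cells (69.1). The hybridisation controls BioB and BioC averaged 303 for the parietal array and 711 and 712 for the zymogenic and pit arrays.

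Sequences upstream of the members are given first for the lactate dehydrogenase pair and the glucose transporter, because the zymogenic and pit arrays placed Ldha and Slc2a1 in the opposite order to Ldhb. The capitals mark ACGTG, read on either strand, the core bound by hypoxia-inducible factors. The entries are from RefSeq on GRCm38.p6 and run 5′ to 3′ on the strand of the gene. The array data name no genome build, so these positions belong to RefSeq alone. The Ldha entry lies at chr7:46845554-46845853 on the plus strand and holds 3 such runs, 2 of them as the longer E-box CACGTG. The Slc2a1 entry lies at chr4:119108495-119108794 on the plus strand and holds 1. The Ldhb entry lies at chr6:142507908-142508207 on the minus strand and holds 0. Another form of the core, GCGTG, is not marked in capitals and was found for all 3 genes, Ldhb included.
Ldha: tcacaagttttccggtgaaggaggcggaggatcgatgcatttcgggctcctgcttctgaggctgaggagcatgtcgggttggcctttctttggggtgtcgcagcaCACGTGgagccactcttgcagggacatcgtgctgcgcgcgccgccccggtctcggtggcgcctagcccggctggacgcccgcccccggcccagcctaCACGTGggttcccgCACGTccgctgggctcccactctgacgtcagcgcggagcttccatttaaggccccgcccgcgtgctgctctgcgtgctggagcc
Slc2a1: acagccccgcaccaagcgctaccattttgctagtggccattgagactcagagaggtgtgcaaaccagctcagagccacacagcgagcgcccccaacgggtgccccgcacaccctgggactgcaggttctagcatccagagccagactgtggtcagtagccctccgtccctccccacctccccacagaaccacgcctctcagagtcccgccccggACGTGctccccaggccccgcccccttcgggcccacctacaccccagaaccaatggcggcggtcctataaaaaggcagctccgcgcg
Ldhb: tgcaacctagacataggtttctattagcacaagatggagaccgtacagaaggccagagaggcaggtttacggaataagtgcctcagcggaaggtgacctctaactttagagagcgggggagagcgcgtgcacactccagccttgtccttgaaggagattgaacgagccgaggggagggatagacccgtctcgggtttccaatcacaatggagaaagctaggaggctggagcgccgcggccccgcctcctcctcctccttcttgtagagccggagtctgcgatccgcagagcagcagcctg
A second Ldha entry, further downstream, holds 0 runs and is not shown. Over the promoter table, 11 of 17 glycolysis genes (64.7%) had ACGTG in at least 1 entry, namely Slc2a1, Hk1, Hk2, Pfkm, Aldoa, Gapdh, Pgk1, Pgam1, Pkm, Ldha and Slc16a3. The share was 3 of 15 (20%) for the citric acid cycle, 2 of 17 (11.8%) for fatty acid oxidation, 30.5% for the 3368 genes above the floor on at least 1 array and 21.8% for all 27025 genes with an entry. Glycolysis genes had 1.59 entries per gene against 1.28 for the genes above the floor, which gives them more sequence to hold a match. The 3 promoters shown were picked by array values, and ACGTG did not follow the arrays over the members. Of the 8 members at least 2-fold lower in zymogenic cells than in both others, Slc2a1, Aldoa and Ldha had it. Cs, Mdh2, Slc25a20, Hadhb and Tpi1 did not. Among those lower in pit cells it was found for Idh3g and not for Idh2, Fh1 or Ldhb. A match is a run of letters and was not tested as a binding site.

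The G form of the same core, GCGTG, was found for 58.8% of glycolysis genes against 55% of genes above the floor. The estrogen-related receptor half-site AAGGTCA, a motif linked to mitochondrial genes, was held by 4 of 49 members, Ogdh, Acadm, Tpi1 and Eno1 (8.16%), against 3.83% of genes above the floor. Unlike that background, the 49 include Gpi1 and Eno1 and members under the floor on every array, such as Ogdh. The GC box GGGCGGG was held by 59.2% of members against 52.7%. In all, 12 motifs were searched on both strands. Among the rest, the E-box CACGTG was held by 3 of 49 members (6.12%) against 12.1% of genes above the floor. The short GC box CCGCCC was held by 71.4% of members against 68.3% of genes above the floor, and the NRF1 half-site CATGCGC by 12.2% against 8.08%. Among all 27025 genes with an entry the shares were 35.2% for GCGTG, 5.38% for AAGGTCA and 27.9% for GGGCGGG. They were 8.09% for CACGTG, 38.2% for CCGCCC and 4.41% for CATGCGC. The longer receptor motifs were TCAAGGTCA and a form with a free base, TNAAGGTCA. The former was held by 0 of 49 members against 0.297% of genes above the floor, the latter by 1, Tpi1, against 0.831%. By name, the other motifs were the full NRF1 site (6.12% of members against 2.32% of genes above the floor), its form with a free base (10.2% against 6.18%) and the PPAR direct repeat (0 members against 0.0297%). Of the 12, CACGTG contains ACGTG, the longer receptor motifs contain AAGGTCA, the full NRF1 site contains its half-site, and GGGCGGG contains the short GC box on the other strand.

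Of the 50 members, 35 exceeded the floor on at least 1 array and 17 on all 3. By array, 33 were above the floor in parietal, 22 in zymogenic and 25 in pit cells, where all genes numbered 2809, 2285 and 2616. Parietal cells had the largest value for 27 of the 35, against 1598 of the 4138 genes above the floor on at least 1 array. They had the lowest for 0 of the 35, against 231 of the 4138. At least 2-fold above both other arrays were 11 of 35 in parietal cells (31.4%), where 7.49% of the 4138 genes met the same rule. The 11 were spread evenly, with 4 of 12 in the citric acid cycle, 4 of 13 in fatty acid oxidation and 3 of 10 in glycolysis. At 1.5-fold the counts were 8, 6 and 4, against 15.3% of genes, and at 4-fold 0 in each, against 1.16%. Set against pit cells alone, 6, 6 and 5 members were 2-fold higher (12% of genes), and against zymogenic cells alone 5, 6 and 6 (20.9% of genes). The count of 11 depended on how the arrays were scaled. It was 3 of 32 members (9.38%, against 3.34% of genes) after quantile normalization, 3 of 32 (9.38%, against 2.94%) with the arrays brought to 1 median, and 31 of 44 (70.5%, against 31.5%) with the BioB and BioC controls. Idh3b and Acaa2 met the rule under each of these scalings. Acaa2 did not meet it with the mean over its probe sets, where its log2 difference from the nearer array was 0.85, or with transcript-specific sets, where it was 0.71. Markers of other cell types were also higher in parietal cells. They were 2 of 5 fibroblast markers, Col1a2 (125, 61.7 and 25.6 in parietal, zymogenic and pit cells) and Col3a1 (103, 39.4 and 19.8), 1 of 6 immune markers, H2-Aa (186, 84.2 and 45.9), and the neck cell marker Tff2 (402, 21.9 and 110.4). Other such markers were highest elsewhere. In zymogenic cells these included the immune marker Cd79a (0.453, 48.8 and 4.99) and the smooth muscle marker Acta2 (83.3, 146 and 83.8). In pit cells they included the neck marker Gkn3 (10.8, 8.56 and 28.7) and the adipocyte marker Fabp4 (26.7, 6.27 and 81.0). Summed levels in the same order were 276, 126 and 76.3 for fibroblast markers, 385, 292 and 129 for immune markers, and 413, 30.4 and 139 for the 2 neck markers found, with 0 of these at 0 on any array. Their part in the members' values was not tested.

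Lower in zymogenic cells than in either other lineage by at least 2-fold were 8 of 35 members (22.9%, against 11.1% of genes), and 4 of these 8 were among the 10 glycolysis genes. On the pit array 5 of 35 (14.3%) were lower than in either other lineage, against 2.61% of genes, and 3 of the 5 belonged to the citric acid cycle. The 8 became 5 after quantile normalization and 5 with 1 median, with Cs, Slc2a1, Aldoa and Ldha among them both times. The 5 became 4 with 1 median, where Ldhb no longer met the rule, 3 with the floor as a pseudocount (Idh3g, Acaa2 and Ldhb) and 2 with the mean over all probe sets (Idh3g and Fh1). With transcript-specific probe sets 2 of 22 members were lower in zymogenic cells (9.09%, against 9.62% of genes) and 0 in pit cells (against 1.76%). At least 2-fold higher in zymogenic cells was 1 member, Suclg2 (2.86%, against 6.91% of genes). The pit array held 0 such members, where 5.78% of genes were called, and 0 members were lowest in parietal cells by 2-fold, as were 0.387% of genes.

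**Figure D1:**
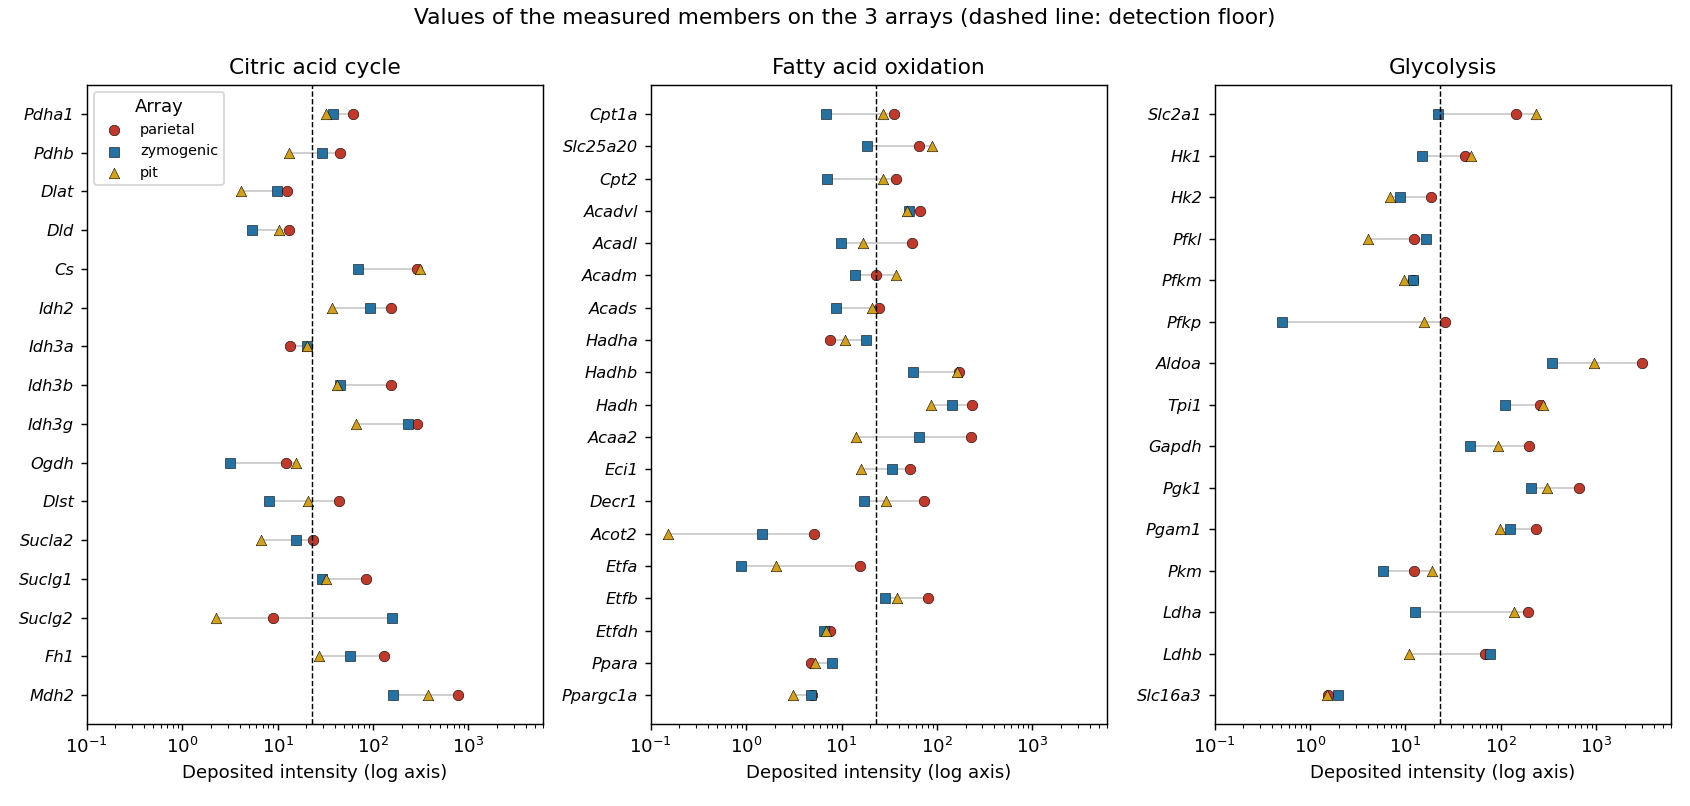
Deposited intensity on a log axis (horizontal) of each of the 50 measured members (vertical), with 1 point per array, in 3 panels by pathway; the dashed line is the floor of 23.3. Parietal points lie furthest right for most genes, while Slc2a1, Ldha, Cs and Hadhb have a zymogenic point set apart to the left and Ldhb, Acaa2, Idh2 and Idh3g a pit point.

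Pyruvate dehydrogenase, the gate from glycolysis to the cycle, was only partly measured. Pdha1, its catalytic alpha subunit, stood at 62.1 in parietal, 37.8 in zymogenic and 32.2 in pit cells. Pdhb, the beta subunit, stood at 45.3, 29.2 and 13.3 in the same order. Both had the same order of arrays, and each was less than 2-fold above the next array. Dlat, the acetyl transferase, and Dld, the dehydrogenase shared with other complexes, were under the floor on all 3 arrays, at no more than 12.7 and 13.2.

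Citrate synthase and the isocitrate dehydrogenases, which open the cycle, did not share a pattern. Cs, which joins acetyl-CoA to oxaloacetate, was at 292 in parietal and 311 in pit cells but 69.3 in zymogenic cells, 4.22-fold below the parietal array, which was the lower of the others. Idh3b and Idh3g code for regulatory subunits of the NAD-dependent enzyme, which is assembled with the catalytic subunit Idh3a. Idh3b, at 153, 45.6 and 42.3 in parietal, zymogenic and pit cells, was high in parietal cells alone. Idh3g, at 289.9, 233 and 66.6, was low in pit cells alone. Thus 2 subunits of 1 enzyme complex placed the zymogenic array differently, level with pit cells in Idh3b and within 1.25-fold of parietal cells in Idh3g. Idh3a was under the floor throughout, at no more than 20.6. Idh2, the mitochondrial NADP-dependent enzyme, was at 156, 92.4 and 37.0, and thus lowest in pit cells by at least 2.49-fold.

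The middle of the cycle held the only member that was high in zymogenic cells. Succinyl-CoA ligase has a common alpha subunit, Suclg1, and beta subunits that use ADP (Sucla2) or GDP (Suclg2). Suclg1 was at 83.8 in parietal, 29.3 in zymogenic and 32.0 in pit cells. Suclg2 was at 159.6 in zymogenic cells against 9.06 and 2.28 in parietal and pit cells, at least 6.86-fold higher. Its further probe set stayed under the floor on all arrays, with 7.71 as its highest value, so that this difference rests on 1 probe set. That set is not transcript-specific, so its values may include other transcripts, and Suclg2 has no transcript-specific set. Sucla2 was at 23.6 in parietal cells, just over the floor, and under it elsewhere. Of oxoglutarate dehydrogenase, the step before, Dlst was above the floor only in parietal cells, at 43.9, and Ogdh in no lineage.

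Fumarase and malate dehydrogenase close the cycle. Fh1, the fumarase, stood at 131, 57.2 and 27.0 in parietal, zymogenic and pit cells, with each array more than 2-fold from the next. Mdh2, the mitochondrial malate dehydrogenase, had another order, at 785, 161 and 378, and was 2.08-fold above the pit and 4.89-fold above the zymogenic array. The further Mdh2 probe set was at 516, 157 and 391. It placed the zymogenic array lowest again, while its parietal value was less than 2-fold above that of pit cells. Fh1 and Suclg1 have no further probe set, and that of Idh3b (119.6, 47.0 and 32.8) was also at least 2-fold higher in parietal cells than in either other lineage.

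Over the 8 cycle genes measured on all 3 arrays, parietal minus pit had a median log2 difference of 1.62, parietal minus zymogenic of 1.35 and zymogenic minus pit of 0.17. The same medians over the 1186 genes measured on all 3 arrays were 0.29, 0.64 and -0.21. With the 4 genes that were under the floor on some array included at that floor, the medians of the 12 were 1.01, 0.83 and 0.17. Beside these differences, the sum of the parietal markers was also lowest in pit cells and highest in parietal cells, and its part in the result was not tested.

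Entry of fatty acids into mitochondria runs through the carnitine shuttle, whose 3 members were all lowest in zymogenic cells. Cpt1a, which attaches carnitine at the outer membrane and sets the pace of the route, was at 35.7, 6.87 and 27.4 in parietal, zymogenic and pit cells. Cpt2, which removes it again inside, was at 37.4, 7.11 and 27.1. Slc25a20, the carrier between them, was at 64.6, 18.7 and 88.8, at least 2.78-fold lower in zymogenic cells. For Cpt1a and Cpt2 the zymogenic values were under the floor and the others near it, so their differences, at least 1.18-fold and 1.17-fold from the pit array, are bounds and not calls.

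The acyl-CoA dehydrogenases, which take the first electrons from fatty acids of different chain lengths, were weak on all arrays. Acadvl, for the longest chains, was measured throughout at 66.5, 51.4 and 48.4, within 1.37-fold between any of the arrays. Acadl, for long chains, was at 54.7 in parietal cells and under the floor on the others (9.90 and 16.6), at least 2.35-fold higher. Acadm, for medium chains, was above the floor only in pit cells, at 36.9, and Acads, for short chains, only in parietal cells, at 24.9.

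The later steps fell into opposite patterns between the zymogenic and pit arrays. Hadhb, the thiolase subunit of the trifunctional protein that handles long chains, was at 169.9 in parietal, 56.5 in zymogenic and 162 in pit cells. Its further probe set, at 107.5, 38.7 and 85.8, was also more than 2-fold lower in zymogenic cells. Acaa2, the thiolase of the matrix for shorter chains, was at 228, 64.2 and 14.1, at least 9.79-fold higher in parietal than in pit cells. For this pair of thiolases the log2 difference of zymogenic minus pit was -1.52 for Hadhb and 1.46 for Acaa2, a gap of 2.98 that no common scaling of an array alters, apart from the floor. The further Acaa2 probe set above the floor was so only in parietal cells, at 38.2. Hadh, the hydroxyacyl-CoA dehydrogenase, was at 231, 144 and 86.9 and had the same order as Acaa2, as had its further probe set at 168, 111 and 75.0. Hadha, the partner subunit of Hadhb, was under the floor on every array, at no more than 18.1.

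Enzymes for unsaturated chains and for handing electrons on were highest in parietal cells where measured. Decr1, the dienoyl-CoA reductase, was at 72.8, 17.3 and 29.4, and Eci1, the enoyl-CoA isomerase, at 52.1, 33.5 and 16.1 in parietal, zymogenic and pit cells. Etfb, a subunit of the flavoprotein that collects electrons from the acyl-CoA dehydrogenases, was at 80.4, 28.7 and 38.0, 2.12-fold above the pit and 2.80-fold above the zymogenic array. Its partner Etfa and the acceptor Etfdh were under the floor on all arrays, as were the thioesterase Acot2 and the regulators Ppara and Ppargc1a, with no value over 15.7 among these 5. Over the 4 members measured on all 3 arrays (Acadvl, Hadhb, Hadh and Etfb), parietal minus pit had a median log2 difference of 0.77, parietal minus zymogenic of 1.09 and zymogenic minus pit of -0.16. With floored members the 13 had medians of 0.47, 0.69 and -0.22.

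**Figure D2:**
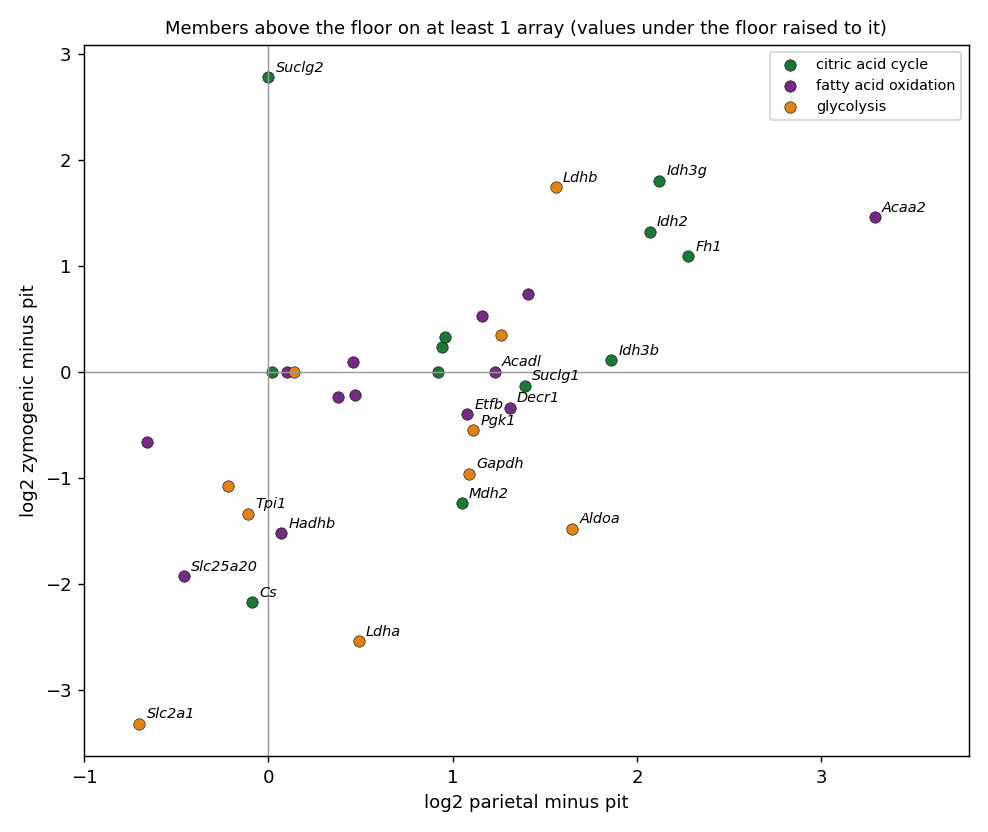
Each point is 1 of the 35 members that exceeded the floor somewhere, with the log2 difference of parietal minus pit (horizontal) against zymogenic minus pit (vertical) and colour by pathway; members called on some array are named. Slc2a1 (-3.32), Ldha (-2.54) and Cs (-2.17) lie lowest on the vertical axis, and Suclg2 (2.78), Idh3g (1.80) and Ldhb (1.74) highest. The axes share the pit array, so the points' slope is not a result.

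At the start of glycolysis, Slc2a1 for glucose entry and Hk1 for its trapping were lowest in zymogenic cells. Slc2a1, the widespread glucose transporter, was at 144 in parietal, 21.9 in zymogenic and 233 in pit cells, which made it at least 10.01-fold lower in zymogenic than in pit cells. Its further probe sets were at 48.2, 6.29 and 74.6 and at 17.004, 0.963 and 46.2, and in the latter parietal and zymogenic cells were both under the floor. Hk1, the hexokinase of most tissues, was at 42.3, 15.0 and 49.2, under the floor in zymogenic cells and not called. Hk2, the inducible hexokinase, was under the floor. Hk3, another hexokinase from outside the member list, was highest in zymogenic cells, at 22.6, 37.5 and 34.2, and was not called either. Phosphofructokinase, the committed step, was barely measured. Pfkp reached 25.7 in parietal cells, and Pfkl and Pfkm stayed under the floor, at no more than 16.5 and 12.1.

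The enzymes from aldolase to phosphoglycerate mutase were measured on all 3 arrays. Aldoa, the aldolase, was at 2981, 340.0 and 950.1 in parietal, zymogenic and pit cells, with 8.77-fold between parietal and zymogenic cells. That size held for this probe set alone, since the 4 further sets gave log2 differences of 1.64 to 2.21 there, against 3.13. All 4 were also at least 2-fold lower in zymogenic cells than in either other lineage, while 0 of the 4 were 2-fold higher in parietal cells than in both. Every Aldoa probe set carries the mark for sequence shared with other transcripts, so its values may include such transcripts. The sets used for Cpt1a, Hadhb, Hadh, Tpi1 and Pgk1, among others, carry the same mark. Tpi1, triosephosphate isomerase, was at 257, 109 and 278, and its 2 further probe sets, at 68.4, 32.3 and 68.3 and at 53.7, 21.1 and 69.9, were also lower in zymogenic cells by 2-fold. Pgk1, phosphoglycerate kinase, was at 652, 206 and 301, and Pgam1, the mutase, at 234, 125 and 98.1. Pgk1 was 2-fold above both other arrays in parietal cells in 1 of its 2 further probe sets as well (202, 62.1 and 81.3). Pgam1 alone of these had its lowest value in pit cells.

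Gapdh, the dehydrogenase of glyceraldehyde phosphate, was represented by the array's own control sets, which read its transcript at 3 positions. The set at the 3′ end was at 198, 47.8 and 92.9 in parietal, zymogenic and pit cells. The middle set was at 57.3, 33.7 and 10.5, which puts the pit array lowest, and the 5′ set was under the floor on all arrays, at 22.4, 12.3 and 14.0. Parietal cells had the highest value in each of the 3 sets, and the order of the other arrays depended on the set.

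Lactate dehydrogenase, which interconverts pyruvate and lactate, has forms that were placed in opposite order. Ldha, the form that predominates in muscle and favours lactate production, was at 191 in parietal, 12.5 in zymogenic and 136 in pit cells. Ldhb, the form that predominates in heart and favours lactate use, was at 68.6, 77.6 and 10.99. The zymogenic array thus held Ldhb with Ldha under the floor, the pit array held Ldha with Ldhb under the floor, and the parietal array held both. Ldha was at least 5.83-fold lower, and Ldhb at least 3.34-fold higher, in zymogenic than in pit cells. The gap between the log2 differences of zymogenic minus pit, Ldha minus Ldhb, was -4.28. It ran from -6.26 to -3.49 over the 7 settings that measured both genes, and from -4.32 to -3.92 under the 3 other scalings. Ldha has no further probe set. The 3 of Ldhb all gave the pit array the lowest value, at 6.82, 7.32 and 10.8, against 55.8, 47.5 and 39.9 in parietal cells, and the zymogenic values were 57.9, 38.4 and 19.9. Pkm, pyruvate kinase, and Slc16a3, an exporter of lactate, were under the floor, at no more than 19.1 and 1.98.

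**Figure D3:**
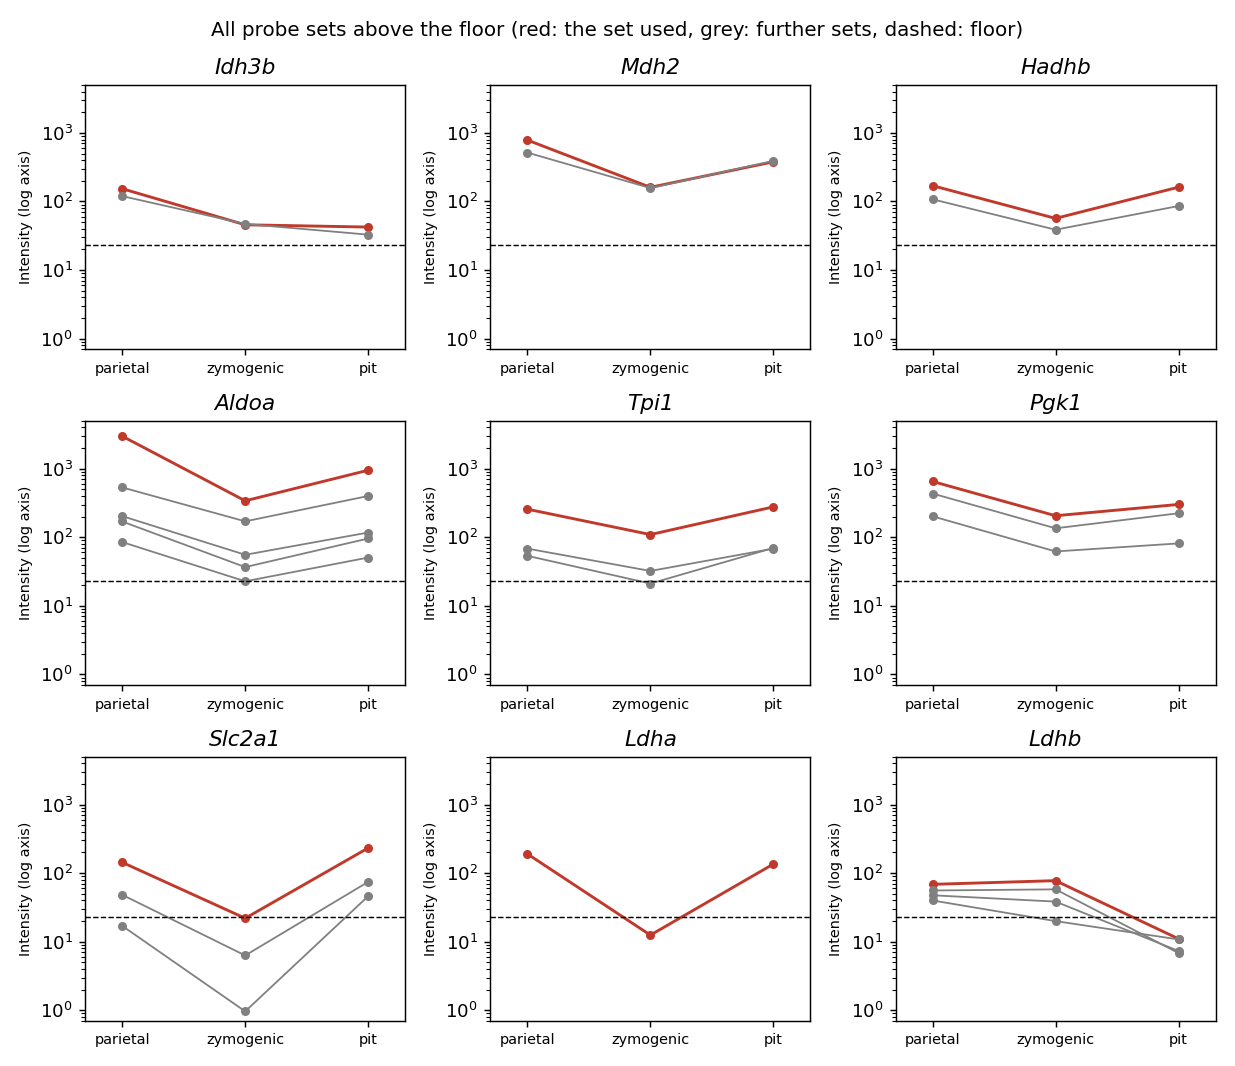
Intensity on a log axis (vertical) on the 3 arrays (horizontal) for every probe set above the floor of 9 members, picked after their values were seen; red is the set used, grey the further sets, and the dashed line the floor. The zymogenic dip recurs in every set of Hadhb, Aldoa and Tpi1 and in 2 of the 3 of Slc2a1, whose last set is under the floor in both parietal and zymogenic cells. The pit drop recurs in every set of Ldhb, where 1 set has its zymogenic value under the floor too.

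Over the 5 glycolysis members measured on all 3 arrays (Aldoa, Tpi1, Gapdh, Pgk1 and Pgam1), parietal minus pit had a median log2 difference of 1.11, parietal minus zymogenic of 1.66 and zymogenic minus pit of -0.96. With floored members the 10 had medians of 0.79, 1.45 and -1.02. In zymogenic minus pit values glycolysis was therefore at -0.96 where the citric acid cycle was at 0.17 and fatty acid oxidation at -0.16. Over the 1186 genes measured on all 3 arrays that median was -0.21. The -0.96 is the value of the Gapdh set at the 3′ end, and the middle Gapdh set gave 0.53. With the mean over all probe sets, the median of the 10 glycolysis members was -0.55. With BioB and BioC as the common scale, which brings further members above the floor, the glycolysis median with floored members was -0.27. Of the 10 glycolysis members, 7 were lower in zymogenic than in pit cells and 2, Ldhb and Pgam1, higher, where 2069 of all 4138 genes were lower and 1555 higher. Of the 12 citric acid cycle members, 3 were lower (Cs, Mdh2 and Suclg1) and 7 higher. The sum of the pit markers was likewise lowest in zymogenic cells, at 134.9 against 15183 in pit cells. Their lowest value there was 1.74 for Capn8 and 0 of the 9 were at 0, and their part in the result was not tested.

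Of the 25 calls made for members (a member can be called on more than 1 array), 15 concerned a gene for which a further probe set also exceeded the floor, and for 8 of the 15 at least 1 such set met the same call. These were Idh3b and Pgk1 for the parietal array, Mdh2, Hadhb, Slc2a1, Aldoa and Tpi1 for the zymogenic array, and Ldhb for the pit array. The other 7 were Mdh2, Acaa2, Aldoa and Gapdh in parietal cells, Cs in zymogenic cells, and Idh3g and Acaa2 in pit cells. A further 10 calls had no second set above the floor, 5 of them because the gene has no other set.

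Other genes of the 3 pathways, from a list that holds no member, were taken in the same way. Of 29 listed for the cycle and pyruvate, 27 were on the array and 16 above the floor, with 2 higher in parietal cells, 2 higher in pit cells, 2 lower in zymogenic cells and 1 lower in pit cells. As shares these were 12.5%, 12.5%, 12.5% and 6.25%, against 7.49%, 5.78%, 11.1% and 2.61% of all genes, so each rests on 1 or 2 genes near the background. Sdhb, a subunit of succinate dehydrogenase, was at 387, 164 and 168 in parietal, zymogenic and pit cells, and Pdk1, a kinase that shuts off pyruvate dehydrogenase, at 54.9, 8.03 and 5.22. Mdh1, the cytosolic malate dehydrogenase, was at 379, 218 and 89.4 and lowest in pit cells, unlike its mitochondrial counterpart Mdh2. Slc25a10, the dicarboxylate carrier, was at 112, 14.4 and 234, and Me2, a mitochondrial malic enzyme, at 20.7, 5.78 and 53.7.

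For fatty acid oxidation, 17 of 35 genes found were above the floor, with 2 higher in parietal, 1 each higher in zymogenic and pit cells, 3 lower in zymogenic and 1 lower in pit cells. The share higher in parietal cells was 11.8%, against 7.49% of all genes, and the share lower in zymogenic cells 17.6%, against 11.1%. Each of the others was 5.88%, against 6.91% higher in zymogenic, 5.78% higher in pit and 2.61% lower in pit cells. Acsl5, which activates long-chain fatty acids, was at 250.3, 59.0 and 150.5. Acat1, the mitochondrial acetoacetyl-CoA thiolase, was at 139, 74.8 and 23.5, which is the order of Acaa2. Fabp5, a fatty acid binding protein, was at 2570 in parietal, 124 in zymogenic and 1130 in pit cells. The peroxisomal enzymes differed from each other, with Hsd17b4 at 54.6, 18.4 and 19.4 and the thiolase Acaa1a at 428, 109 and 559.9. Acad10 (6.71, 398 and 5.16) was high in zymogenic cells and Fabp2 (18.9, 3.69 and 49.0) in pit cells. For glycolysis, 8 of 28 genes found were above the floor, and 1 was called. It was Pgd, the phosphogluconate dehydrogenase of the pentose phosphate route, at 1625, 92.9 and 1370, lower in zymogenic cells, and 0 of the 8 were higher in parietal cells. That is 12.5% lower in zymogenic cells, against 11.1% of all genes, and 0 higher in parietal cells, against 7.49%.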

How the data were processed

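The deposited table holds 1 intensity per probe set and array for 45101 probe sets, on a linear scale as the authors deposited it. How the authors summarised, background-corrected and scaled it is not given in the sources used here, and no further scaling was applied. Probe sets that name 1 gene in the platform table (34958) were used, and 932 that name several were left out. Symbols were updated through gene identifiers to RefSeq GRCm38.p6 (34754 matched), and each gene was read from whichever of its probe sets had the largest 3-array mean. For the floor, the 95th percentile of 80 receptor probe sets was taken on each array, and the largest (23.3) was kept. A member was called when at least 2-fold above, or below, both other arrays after flooring. All 52 members are named or counted, and genes of the wider pathway lists are named when called. With 1 array per lineage there is no test, and the number of arrays limits precision. The members, lists and rules were chosen with earlier results of these data known. Alternatives were other scalings, floors, folds and probe set choices. Python 3.11.15, numpy 2.4.6, pandas 2.3.3 and matplotlib 3.10.9 were used. The code for the calls was run on simulated data, with changes planted on the parietal array alone in genes well above the floor. Its scatter was smaller than that between probe sets of 1 gene, so that run does not show how reliable calls near the floor are. Promoter sequences are from RefSeq.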

Additional observations from a re-analysis of the deposited data

How the results depend on the processing

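No paired analysis was possible because each lineage has 1 array. Under the settings run, 0 of the pathway medians reversed sign. The same held for the called members' differences from the nearer other array. Other pairwise differences of single members were not checked for reversal, and those between parietal and pit cells also depend on the scaling of the arrays. The number of members at least 2-fold higher in parietal cells (4 in the citric acid cycle, 4 in fatty acid oxidation and 3 in glycolysis) was 1, 2 and 0 after quantile normalization, 1, 1 and 1 with 1 median, and 11, 11 and 9 once scaled to BioB and BioC. At 4-fold it was 0 in each pathway, and at 1.5-fold it was 8 in the citric acid cycle. With the floor as a pseudocount it was 2 in the citric acid cycle and 1 in fatty acid oxidation, with the mean over all probe sets 1 in fatty acid oxidation and 1 in glycolysis, and with transcript-specific probe sets 1 in the citric acid cycle. Over all pathways these settings called 14.3%, 14.3% and 27.3% of members, against 4.4%, 3.65% and 6.29% of all genes. Without the zymogenic array glycolysis had 5, and without the pit array 6, which were alternatives chosen after the data were seen, as was the Ldha and Ldhb comparison across settings. With the BioB and BioC controls the median log2 difference of parietal minus pit was 1.99 for the citric acid cycle and 1.70 for fatty acid oxidation. That of parietal minus zymogenic was 1.90, 1.89 and 2.03 for the citric acid cycle, fatty acid oxidation and glycolysis, and that of zymogenic minus pit was -0.27 for glycolysis, with all genes shifted by 0.69 and 0.78 for the parietal array against pit and zymogenic. The parietal minus zymogenic median was 0.27 for the citric acid cycle with 1 median, 0.79 for glycolysis after quantile normalization, 0.92 for glycolysis with transcript-specific probe sets and 1.49 for fatty acid oxidation with the floor at the 90th percentile (10.9). With the floor at the 99th percentile (868) Aldoa was the only member left, with 1 call and glycolysis values of 1.65 for parietal minus pit and -0.13 for zymogenic minus pit, and no value could be had for the other pathways. The 8 members lower in zymogenic cells were 5 after quantile normalization (Cs, Slc25a20, Slc2a1, Aldoa and Ldha) and 5 with 1 median (Cs, Mdh2, Slc2a1, Aldoa and Ldha). Each 5 was 15.6% of members, against 7.83% and 7.47% of all genes. The 5 lower in pit cells were 6 after quantile normalization, with Hadh added, 4 with 1 median, without Ldhb, 3 with the floor as a pseudocount and 2 with the mean over all probe sets (Idh3g and Fh1). As shares of members these were 18.8%, 12.5%, 8.57% and 5.71%, against 2.8%, 1.92%, 1.52% and 1.39% of all genes. With transcript-specific probe sets 2 of 22 members (9.09%), Slc25a20 and Hadhb, were lower in zymogenic and 0 in pit cells. Of all genes 9.62% and 1.76% were, so these shares did not exceed those of all genes. Ldha, Ldhb and Aldoa have no such set. Idh3b and Acaa2 were called higher in parietal cells under all 4 scalings, but Acaa2 was not with the mean over all probe sets (log2 0.85) or transcript-specific sets (0.71). The causes of these differences between settings were not tested.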

Other observations

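Idh1, Me1 and Pgd, which yield NADPH in the cytosol, had their lowest values in zymogenic cells. Idh1, the cytosolic isocitrate dehydrogenase, was at 91.5 in parietal, 2.65 in zymogenic and 70.0 in pit cells, the opposite placing of the zymogenic array from mitochondrial Idh2, which was lowest in pit cells. Me1, the cytosolic malic enzyme, was at 37.6, 0.617 and 58.3. These genes were chosen with their values known.

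Several regulators of the 3 routes could not be compared. Hif1a was under the floor on every array, at no more than 7.22, while Epas1, the related hypoxia-inducible factor, was at 64.8, 36.2 and 79.4 in parietal, zymogenic and pit cells. Esrra, a receptor that acts on mitochondrial genes, was above the floor only in pit cells, at 25.4.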
